A study of Homo sapiens with 16 samples.

Results

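The regions described here are stretches of the genome that carried at least 4-fold more H3K27Ac in DKO cells than in HCT116 cells and overlapped no CTCF region. They were chosen by the H3K27Ac difference itself: a region on chromosomes 1 to 22 was taken when its normalized read density in DKO, divided by that in HCT116, was 4 or more, and when no CTCF region of either line shared a base with it. The rule found 4474 regions among 127626 H3K27Ac regions outside CTCF on these chromosomes (3.51%), and the whole H3K27Ac table held 195421. The size of the acetylation difference is therefore a description of the choice, while CTCF, cohesin and polymerase were measured in other libraries. They are called the higher regions below.

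H3K27Ac, acetylation of lysine 27 on histone H3, marks active enhancers and promoters. CTCF is a zinc-finger protein that binds a long DNA motif, at many sites only where the DNA is unmethylated. Cohesin is a ring-shaped complex that extrudes chromatin loops and is often stalled at CTCF. RAD21 is the kleisin subunit that closes the ring and SMC1 is one of its ATPase arms. Cohesin is also found at active enhancers and promoters that bind no CTCF. RNA polymerase II carries phosphate on serine 5 of its C-terminal repeat early in transcription, near start sites and at enhancers, and gains phosphate on serine 2 as it elongates through gene bodies.

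HCT116 is a human colorectal carcinoma line, and DKO, its derivative, carries disruptions of DNMT1 and DNMT3B, which encode DNA methyltransferases, and has lost most of its DNA methylation. Both were grown in McCoy's 5A medium with serum and received no treatment. Each of 7 targets (CTCF, RAD21, SMC1, H3K27Ac, Pol2Ser5, Pol2Ser2 and TotalRNAPol2) was immunoprecipitated once in each line, which gives 14 libraries, and the 2 input libraries were not used. The samples titled TotalRNAPol2 carry the Pol2Ser5 antibody name in another label and are kept here under their title. DKO is 1 cell line and each value comes from 1 library, so no difference below has a replicate check, and none was tested.

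The authors' normalized log2 ratio of DKO to HCT116 density is called M. An M of 1 is a 2-fold and an M of 2 a 4-fold higher density in DKO. Read counts were recovered from the tables. They were taken over a window of 2 kb for H3K27Ac and the polymerase forms and of 1 kb for CTCF and cohesin, whatever the region's width. Where the window sits in a region was not established, and shared windows below are judged from region midpoints. Intervals in brackets are 95% intervals: exact binomial for the M of a single region, Wilson for a share, and order-statistic for a median. They cover counting error or the spread over regions, not differences between cultures. Coordinates are those of the deposited tables, on hg19, and the tables do not say whether starts count from 0 or from 1. An annotation of that build was not used here, so no gene is named at any region.

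The higher regions held a median of 106 H3K27Ac reads in the DKO library and 19 in the HCT116 library. Counts ran from 11 to 1580 in DKO and from 0 to 187 in HCT116, and 11 regions had 0 reads in HCT116. The median M was 2.63 and the highest was 7.39. As called by the authors, 4265 of the 4474 (95.3%) were called as peaks in DKO only, 208 in both lines, and 1 in HCT116 only. That single region, chr11:60717605-60717791, had 205 reads in DKO and 51 in HCT116 and was singled out after its values were seen. Most higher regions were narrow, with a median width of 371 bp and quartiles of 229 and 815 bp, and the widest, chr2:113538644-113556441, spanned 17797 bp and is named outside the rule for named regions, after its values were seen. At the threshold the choice rested on few reads. The 3 regions just inside each had 105 reads in DKO and 31 in HCT116, and the 3 just outside had 84 and 25.

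The region with the highest M that had any HCT116 read lay at chr14:106938125-106938811, with 261 DKO reads and 1 HCT116 read (M 7.39, 5.89 to 13.69). Its Pol2Ser5 reads were 310 in DKO and 2 in HCT116, and the CTCF region 1.17 kb away had 46 and 2. The second highest, at chr14:106937690-106937964, lay beside it and shared most of its counting window, so these are not separate observations. At chr5:18744967-18748063 acetylation had 518 DKO reads and 5 HCT116 reads (M 6.71, 5.74 to 8.60), Pol2Ser5 had 116 and 7, and the nearest CTCF region was 24.4 kb away. At chr2:2187756-2191491 H3K27Ac had 652 DKO reads and 7 HCT116 reads (M 6.60, 5.74 to 8.12). All 3 polymerase forms were higher there, with M of 5.13 for Pol2Ser5, 2.33 for Pol2Ser2 and 4.93 for TotalRNAPol2, whereas the nearest CTCF region, 41.3 kb away, was lower in DKO with 19 reads against 28. Of the 8 regions with the highest M, 7 had a nearest CTCF region with an M of 1 or more. Over all CTCF regions of chromosomes 1 to 22 that share was 20.3%. The chromosome 14 neighbours are both among the 7 and have the same nearest CTCF region. No region of any other target overlapped 2 of the 8, chr14:106937690-106937964 and chr4:20992831-20993043.

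At chr14:29235891-29236639 acetylation gave 401 DKO reads and 5 HCT116 reads (M 6.35, 5.38 to 8.24). A CTCF region only 318 bp away had 427 reads in DKO and 30 in HCT116, and Pol2Ser5 had 386 and 3. Neither cohesin subunit overlapped the acetylated stretch, and cohesin at the CTCF region itself was not examined. No cohesin region overlapped chr18:65084719-65085897 either, another of the 8. There Pol2Ser5 had an M of 3.07, and the nearest CTCF region, 32.5 kb away, an M of 1.33. Among the regions with 0 HCT116 reads the highest M was at chr14:19744969-19745464, with 75 reads in DKO. Set against 3 reads, the count that a 0 allows, and with the 75 reads taken as exact, its density was at least 33.8-fold higher in DKO. The exact 95% lower limit of its M, which also counts the error of the 75 reads, was 4.75.

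**Figure D1:**
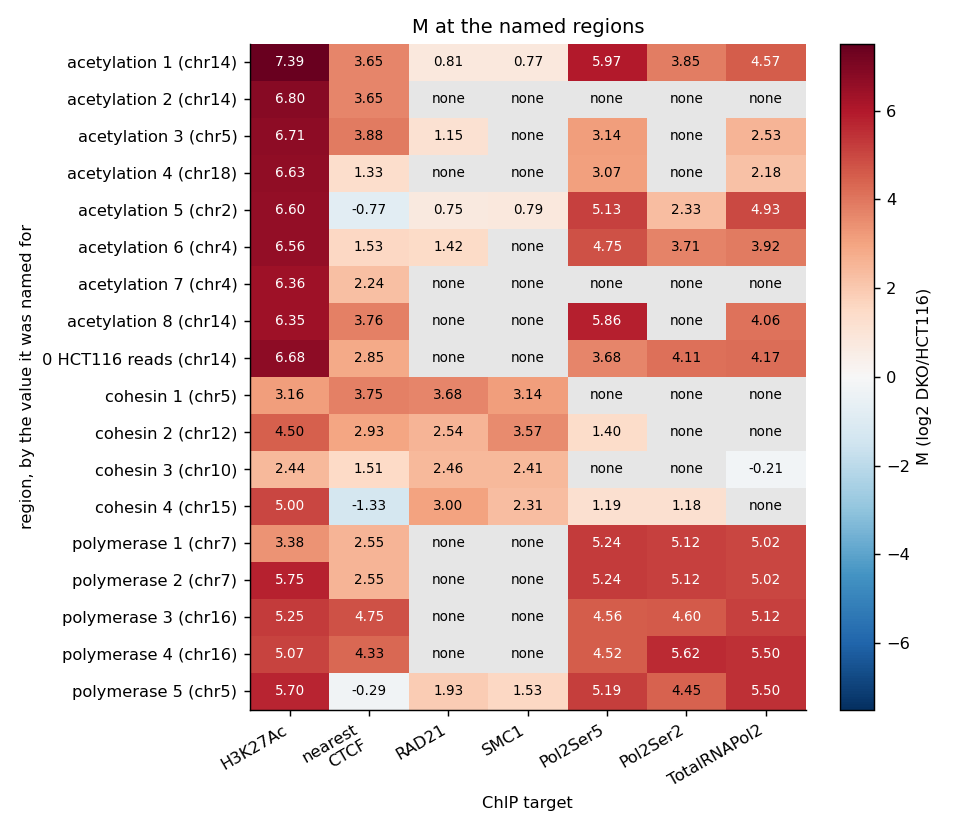
M (log2 of DKO over HCT116) for 18 regions named by a rule, one row each, with the ChIP target in columns; grey cells marked none are targets with no region there, and the nearest CTCF region stands beside the acetylation value. The 5 regions chosen for polymerase have M above 4 in all 3 polymerase columns, while nearest CTCF ranges from -1.33 to 4.75 over the rows.

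Many higher regions lay close to each other, though short spacing was not particular to them. When regions less than 10 kb apart were joined, 2136 of the 4474 (47.7%, 46.3 to 49.2) fell into 472 clusters of 3 or more, 1024 were in pairs and 1314 stood alone. Many of these neighbours share a counting window and are not separate measurements: 2714 regions (60.7%) had another higher region's midpoint within 2 kb. With only 1 region kept from each run of such neighbours, the share in clusters was 11.5%. The nearest other H3K27Ac region lay at a median of 222 bp, well inside the 2 kb window, so that the pair mostly counts the same reads. Its median M was 2.59, which the choice of the higher regions largely fixes. For comparison, 64430 regions outside CTCF with an H3K27Ac M within 0.5 of 0 are called similar regions here and below. Their nearest other H3K27Ac region lay at a median of 315 bp, also well inside the window. The share in clusters was computed for the higher regions only.

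The largest cluster held 24 higher regions over 51.4 kb at chr12:10320494-10371883, with medians of 114.5 DKO and 22 HCT116 reads of H3K27Ac. Its 7 CTCF regions had a median M of -0.09, its 9 RAD21 regions 0.68, its 5 SMC1 regions -0.10 and its 10 Pol2Ser5 regions 0.90. The cluster at chr21:30544648-30596559 held 22 higher regions and a single CTCF region, which was lower in DKO with 116 reads against 171. RAD21 differed more there, with 12 of its 19 regions at an M of 1 or more, but SMC1 had only 2 of 10 (median M 0.69). At chr15:33113758-33158005, with 19 higher regions, 7 of 10 RAD21, 4 of 12 SMC1 and 2 of 5 CTCF regions reached an M of 1. Over all regions of chromosomes 1 to 22, 13.8% of RAD21, 9.37% of SMC1 and 20.3% of CTCF regions did so.

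In the cluster at chr3:149252527-149286215 of 18 higher regions, the cohesin regions within the span were mostly higher in DKO while Pol2Ser5 and TotalRNAPol2 had medians near 0. The median M was 1.47 for 6 RAD21 regions and 1.81 for 4 SMC1 regions, against -0.07 for both the 5 Pol2Ser5 and the 6 TotalRNAPol2 regions. The cluster of 17 at chr2:113526836-113595789 contained no CTCF region over 69.0 kb. There 16 of 20 Pol2Ser5, 11 of 12 Pol2Ser2, 16 of 21 TotalRNAPol2, 11 of 17 RAD21 and 8 of 14 SMC1 regions reached an M of 1. The cluster of 17 at chr9:114688655-114736909 also contained no CTCF region. Of its regions 12 of 20 Pol2Ser5, 10 of 16 RAD21 and 8 of 16 SMC1 reached an M of 1. Only 4 of 17 Pol2Ser2 (median M 0.37) and 5 of 15 TotalRNAPol2 regions did so. Over all regions of chromosomes 1 to 22 the shares were 14.9% for Pol2Ser5, 18.4% for Pol2Ser2 and 20.5% for TotalRNAPol2. For RAD21 and SMC1 they were 13.8% and 9.37%. The 6 clusters thus differed in polymerase, whose median M for Pol2Ser5 ranged from -0.07 to 2.34.

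**Figure D2:**
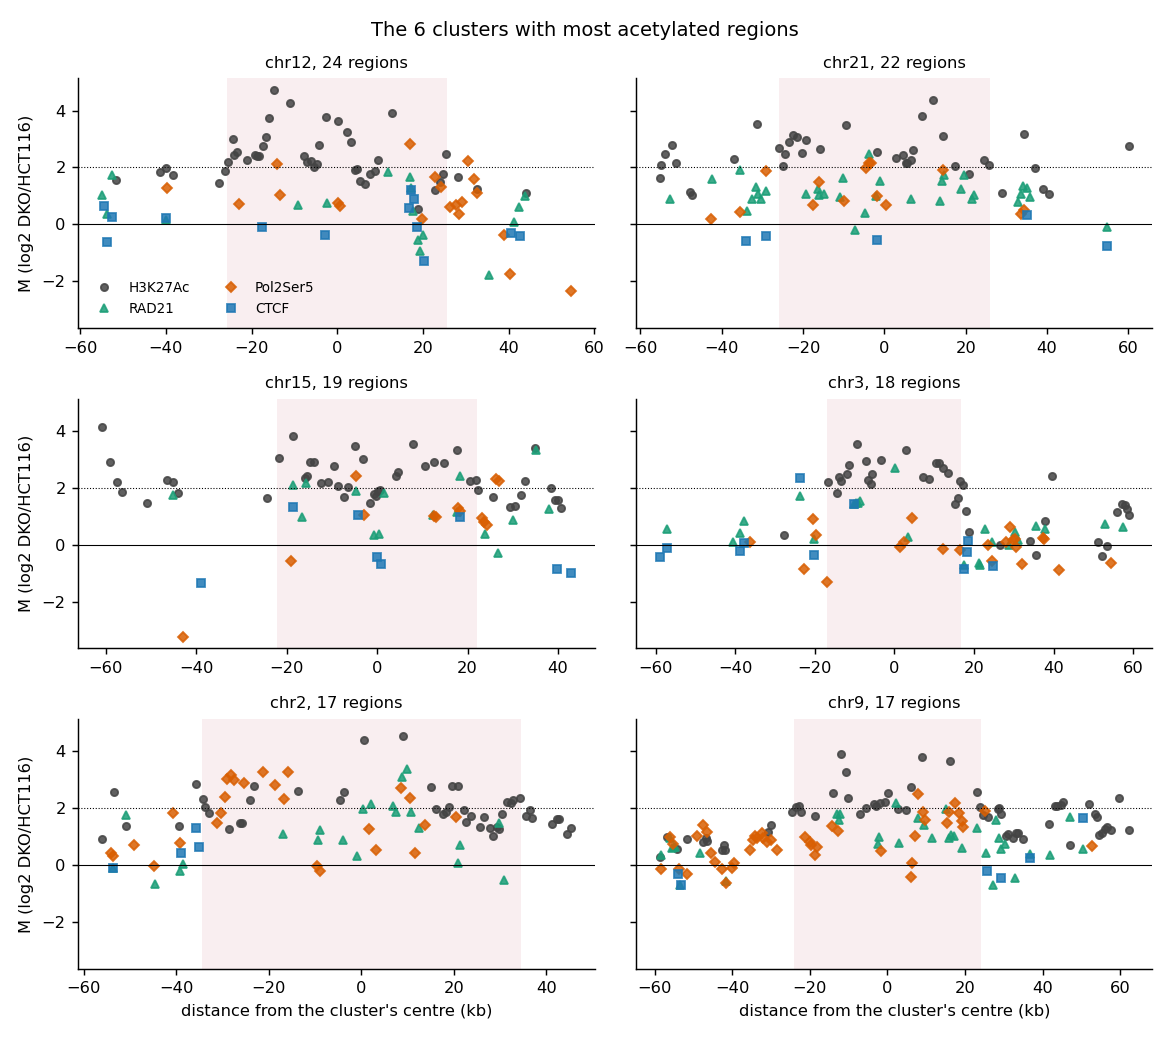
M (log2 of DKO over HCT116) of every H3K27Ac, RAD21, Pol2Ser5 and CTCF region in and around the 6 clusters with most higher regions, against distance from the cluster's centre in kb; the shaded span is the cluster and the dotted line is an M of 2. Acetylation stays above 0 across each span, CTCF points are few or absent inside, and polymerase reaches 3.28 in the chr2 cluster but not above 0.93 in the chr3 cluster.

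Counted per region, polymerase overlapped the regions in clusters less often than those standing alone. Pol2Ser5 overlapped 50.4% of single regions, 37.7% of paired regions and 25.6% of clustered ones, and TotalRNAPol2 46.9%, 34.3% and 24.5%. In the 19 clusters of 10 or more (281 regions) it was 18.5% for Pol2Ser5. The median widths of these groups, 403, 369, 363 and 397 bp, were close. Neighbours in a cluster often share a counting window, so these shares are not over separate observations. With 1 region kept per shared window, Pol2Ser5 overlapped 46.1% of all higher regions in place of 35.7%, and TotalRNAPol2 42.3% in place of 33.3%. Whether the groups differ when counted in that way was not tested. The nearest CTCF region had a median M of 0.64 for single, 0.53 for paired and 0.47 for clustered regions, and of -0.09 in the 19 clusters of 10 or more, where many regions share a nearest CTCF region. Where RAD21 overlapped, its median M was 1.49 in the clusters of 10 or more and 0.94 at single regions.

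On a larger scale, 18 windows of 1 Mb held 20 or more higher regions each and 556 (12.4%) together. In chromosome 8 from 13 to 14 Mb all 26 H3K27Ac regions outside CTCF were 4-fold or more higher, and in chromosome 20 from 59 to 60 Mb 20 of 21 were. CTCF did not move alike in these windows. The median M of its 60 regions in the chromosome 20 window was 2.02, and 55 of them reached 1, whereas in chromosome 13 from 80 to 81 Mb, where 49 of 65 regions were higher, its 30 regions had a median of -0.18. Over all CTCF regions of chromosomes 1 to 22, 20.3% reached an M of 1. RAD21 had a median M of 1.55 in the chromosome 20 window and 1.23 in the chromosome 13 window. By chromosome the share of higher regions ran from 1.27% on chromosome 22 to 7.91% on chromosome 21. Within 2 Mb of each chromosome's longest stretch without a region of any target lay 267 higher regions (5.97%, 5.31 to 6.70), against 1.56% of similar ones.

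The higher regions lay farther from CTCF than regions of similar acetylation did. The distance to the nearest CTCF region had a median of 7.17 kb and quartiles of 2.13 and 17.7 kb, against 2.23 kb (0.91 and 5.33 kb) for the similar regions. The 3983 regions that were 4-fold or more lower in DKO outside CTCF had a median of 7.35 kb, so higher and lower regions lay about equally far from CTCF. The 3 nearest were 3, 6 and 9 bp from a CTCF region. One of them, chr5:65891795-65891960, had 85 H3K27Ac reads in DKO and 14 in HCT116 beside a CTCF region with 105 and 9. The farthest, chr9:39924579-39924778, was 774 kb away and had only 12 reads in DKO and 2 in HCT116.

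CTCF itself was higher in DKO at the nearest region more often than elsewhere. Its M was 1 or more beside 1676 higher regions (37.5%, 36.1 to 38.9), against 20.3% of all CTCF regions on these chromosomes, 20.2% beside similar regions and 4.62% beside lower regions. Its median M was 0.56 (0.52 to 0.62), with 0.32 beside similar and -0.78 beside lower regions. With every table centred on the median of all its regions, which chose 4745 regions instead, the median beside them was 0.26. It was 1.59 for the CTCF regions inside the 1769 regions that were 4-fold higher and did overlap CTCF. By distance, the share at an M of 1 or more was 59.3% within 1 kb (668 regions), 38.4% from 1 to 5 kb, 30.7% from 5 to 20 kb, 31.3% from 20 to 100 kb and 59.6% beyond 100 kb (31 of 52 regions). Beside similar regions the same bands gave 23.8%, 20.1%, 17.6%, 11.0% and 25.0%, the last over 28 regions. The nearest CTCF region was 2-fold or more lower in DKO at 300 higher regions (6.71%). A 4-fold higher H3K27Ac region that overlapped CTCF lay within 10 kb of 1163 higher regions (26.0%). The 4474 higher regions had only 2391 different nearest CTCF regions. The intervals above for the share and the median M count shared ones repeatedly and are too narrow. Counted once each, these CTCF regions had a median M of 0.58, with 0.31 beside similar and -0.61 beside lower regions.

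**Figure D3:**
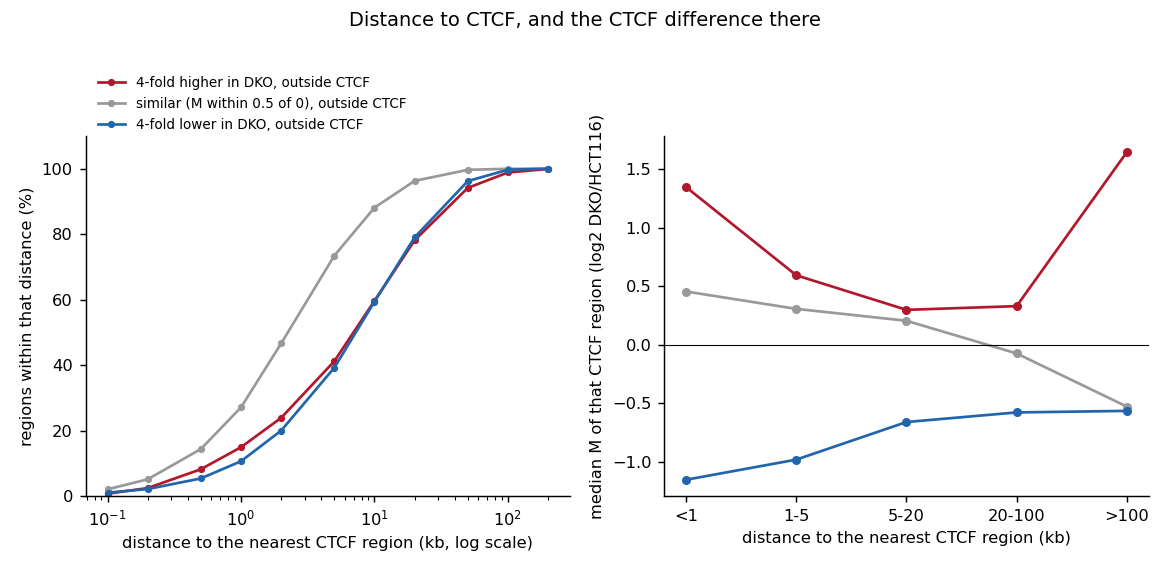
Left, percentage of regions within a given distance in kb (log scale) of the nearest CTCF region for higher, similar and lower regions; right, median M (log2 of DKO over HCT116) of that CTCF region by distance band. The higher and lower curves run together to the right of the similar one, while the CTCF medians separate in sign; the band beyond 100 kb holds only 52 higher and 28 similar regions.

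Cohesin was present at a minority of the higher regions and was mostly higher where present. RAD21 overlapped 944 (21.1%, 19.9 to 22.3), with median counts of 40 (DKO) and 13 (HCT116), and SMC1 overlapped 818 (18.3%, 17.2 to 19.4), with 46 and 20. RAD21 had a median M of 1.08 (1.03 to 1.12), and for SMC1 it was 0.92 (0.86 to 0.96). RAD21 reached an M of 1 at 520 of its 944 overlaps (55.1%), against 13.8% of all RAD21 regions, and SMC1 at 355 of 818 (43.4%), against 9.37%. At similar regions the medians were -0.13 and 0.15, and at lower regions -1.27 and -1.06. Only 3 RAD21 overlaps and no SMC1 overlap had an M of -1 or less. Of the overlapping regions, 88.0% for RAD21 and 90.5% for SMC1 were called in DKO only, against 35.0% and 53.8% at similar regions. How much of the higher M goes with such calling was not tested. Both subunits overlapped 575 higher regions (12.9%), and both reached an M of 1 at 205 of these (35.7%), against 1.25% of 4080 such similar regions.

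These cohesin regions were almost all without CTCF, which the rule largely fixes: 21 of the 927 different RAD21 regions (2.27%) touched a CTCF region outside the acetylated stretch. The 4-fold higher H3K27Ac regions that did overlap CTCF carried RAD21 far more often, at 83.9%, yet the difference between the lines was about as large, with a median M of 1.11. The highest paired cohesin values were at chr5:35919773-35920210. RAD21 gave 353 DKO reads there and 22 HCT116 reads (M 3.68, 3.12 to 4.43). For SMC1 the counts were 230 and 20 (M 3.14, 2.54 to 3.94), and a CTCF region 105 bp away had 337 and 23. No polymerase region overlapped it. At chr15:33064707-33068584 RAD21 had 69 and 5 reads and SMC1 85 and 13, but the nearest CTCF region, 28.3 kb away, was lower in DKO with 7 reads against 15. Cohesin was thus higher in DKO both beside a CTCF region that was higher and 28.3 kb from the nearest one.

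Pol2Ser5 and TotalRNAPol2 differed more than cohesin, while for Pol2Ser2 the order against RAD21 changed with the scaling. Pol2Ser5 overlapped 1595 higher regions (35.7%, 34.3 to 37.1), with median counts of 80 (DKO) and 10 (HCT116) and a median M of 2.29 (2.21 to 2.39). TotalRNAPol2 overlapped 1490 (33.3%, 31.9 to 34.7), with 97 and 23 reads and a median M of 2.01 (1.91 to 2.11). Pol2Ser2 overlapped 727 (16.2%, 15.2 to 17.4), with 27 and 17 reads and a median M of 1.31 (1.18 to 1.45). An M of 1 or more was reached at 80.0% of the Pol2Ser5, 58.9% of the Pol2Ser2 and 78.3% of the TotalRNAPol2 overlaps, against 14.9%, 18.4% and 20.5% of all regions of these targets. At similar regions the medians were 0.25, 0.40 and 0.60. Of the overlapping regions, 90.8%, 73.3% and 92.5% in the same order were called in DKO only, against 46.3%, 45.2% and 58.8% at similar regions. How much of the higher M goes with such calling was not tested. The authors' scaling depends on density for Pol2Ser2 and TotalRNAPol2, so that 9 Pol2Ser2 reads in each line at chr15:33064707-33068584 gave an M of 1.18. A constant offset per table in place of the authors' scaling, in all tables, chose 4034 regions. The medians were then 1.04 for Pol2Ser2 and 1.62 for TotalRNAPol2, with 1.30 for RAD21, so that Pol2Ser2 lay below RAD21.

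**Figure D4:**
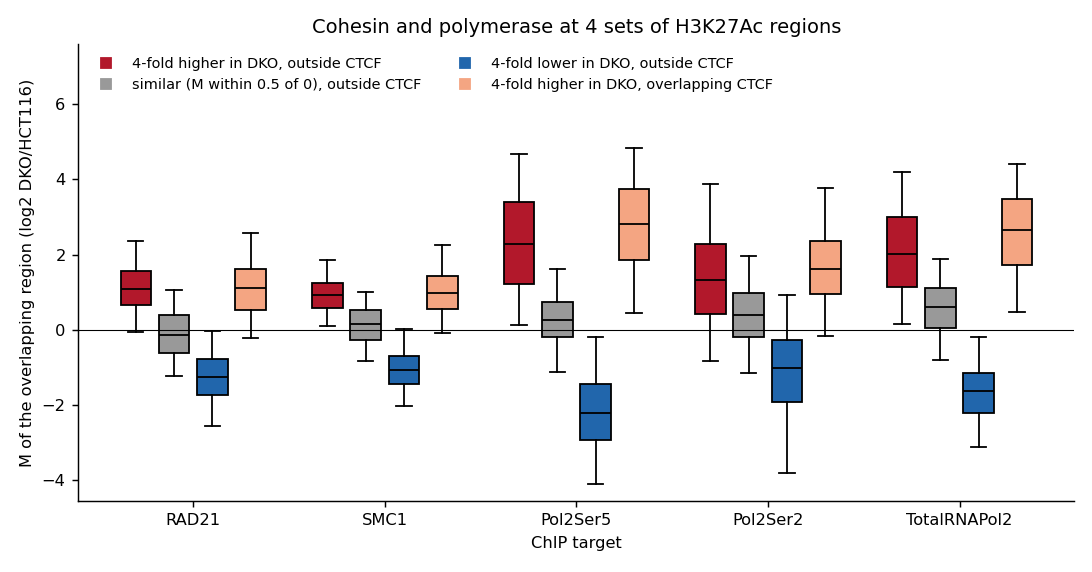
M (log2 of DKO over HCT116) of the cohesin or polymerase region overlapping each H3K27Ac region, for 4 sets of H3K27Ac regions; boxes are quartiles with the median and whiskers reach the 5th and 95th percentiles over regions, not over replicates. The medians at higher regions lie between 0.92 and 2.29, above those at similar regions for all 5 targets and at or below those of 4-fold higher regions that overlap CTCF.

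The initiating and elongating forms were not found equally often. Pol2Ser5 and TotalRNAPol2 without Pol2Ser2 marked 727 higher regions (16.2%, 15.2 to 17.4) but 4.07% of similar ones. Pol2Ser2 as the only polymerase form marked 2.41% of higher and 7.31% of similar regions. Over all widths together, Pol2Ser2 was the 1 target that overlapped higher regions less often than similar ones, 16.2% against 23.9%. Among regions under 300 bp this also held for RAD21, SMC1 and TotalRNAPol2, and from 2 to 5 kb for all 5 targets. All 3 forms overlapped 516 higher regions (11.5%), and all 3 reached an M of 1 at 311 of them (60.3%), against 6.81% of 6502 such similar regions. No polymerase form overlapped 2524 higher regions (56.4%), and none of the 5 targets overlapped 2196 (49.1%). The last were the narrower ones, with a median width of 266 bp and 88 DKO reads.

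Among regions with all 3 forms, chr7:153107822-153108824 had the highest value of the lowest polymerase M, together with its neighbour chr7:153107095-153107308, which overlaps the same polymerase regions. Pol2Ser5 gave 645 DKO reads and 9 HCT116 reads (M 5.24, 4.45 to 6.52), Pol2Ser2 227 and 8 (M 5.12, 4.28 to 6.51) and TotalRNAPol2 538 and 12 (M 5.02, 4.32 to 6.10). A CTCF region 335 bp from the first had 61 and 8 reads. At chr5:133818811-133819487 every target with a region there was higher: H3K27Ac with 525 and 11 reads, Pol2Ser5 with 430 and 6, Pol2Ser2 with 27 and 2, TotalRNAPol2 with 409 and 7, RAD21 with 63 and 11 and SMC1 with 38 and 10. The nearest CTCF region, 16.3 kb away, had 41 reads in DKO and 45 in HCT116. Polymerase and cohesin were thus both higher at a region whose nearest CTCF region had nearly equal counts.

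Polymerase went the other way at few places. An M of -1 or less was seen at 12 Pol2Ser5, 27 Pol2Ser2 and 7 TotalRNAPol2 overlaps. The lowest were Pol2Ser2 regions with 0 reads in DKO and 20 in HCT116, at chr11:40624126-40624468, where acetylation had 67 reads in DKO and 2 in HCT116, and at chr5:57125418-57125720, with 75 and 21. Neither region overlapped Pol2Ser5, TotalRNAPol2 or cohesin.

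The median M of each of the 5 overlapping targets was higher in each higher band of H3K27Ac M outside CTCF, whereas the overlap shares were not ordered in this way over the whole range. From an H3K27Ac M of 2 to 3 (2985 regions) to an M above 4 (515 regions), the share with Pol2Ser5 went from 32.4% to 49.7% and its median M from 1.94 to 3.34. The median M of RAD21 went from 0.96 to 1.41 and that of SMC1 from 0.85 to 1.05. On the side of higher acetylation the nearest CTCF region stood apart only in the top bands: its median M was between 0.27 and 0.30 for H3K27Ac M from 0.5 to 3, then 0.84 from 3 to 4 and 1.63 above 4. In that last band 67.8% of nearest CTCF regions were 2-fold or more higher, although the median distance to them was larger, at 10.7 kb. These are 1 pair of lines, and the regions share libraries and counting windows.

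**Figure D5:**
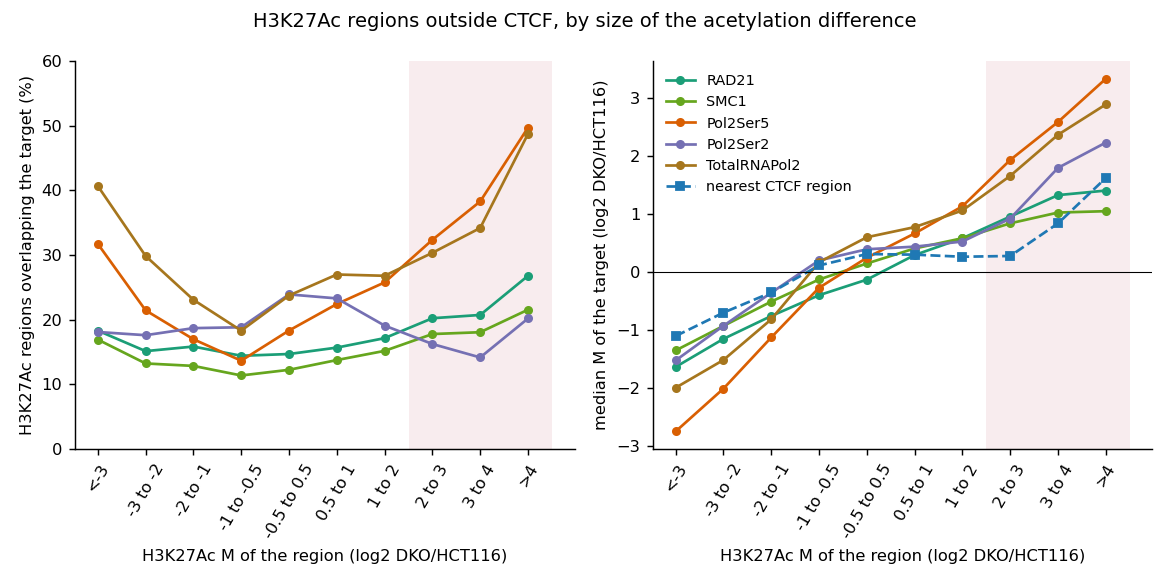
H3K27Ac regions outside CTCF in bands of their acetylation M (log2 of DKO over HCT116); left, percentage of regions overlapping each target, right, median M of the overlapping region and of the nearest CTCF region. The shaded bands are the higher regions; polymerase medians climb to 3.34 there, cohesin medians stay at or under 1.41 and Pol2Ser2 overlap stays at or under 20.2%.

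Width and read depth moved with the overlap shares. Higher regions under 300 bp (1788) overlapped RAD21 in 4.92% and Pol2Ser5 in 18.1% of cases, and the 43 regions of 5 kb or more in 95.3% and 97.7%. At equal width the excess over similar regions held for Pol2Ser5 up to 2 kb, with 18.1% against 12.3% under 300 bp, 35.2% against 21.1% from 300 to 1000 bp and 63.5% against 48.3% from 1 to 2 kb, but not from 2 to 5 kb, with 79.8% against 81.4%. For RAD21 the shares at equal width were 4.92% against 8.22% under 300 bp, 17.6% against 17.5% from 300 to 1000 bp, 51.7% against 49.0% from 1 to 2 kb and 67.9% against 83.3% from 2 to 5 kb. RAD21 was thus less frequent than at similar regions under 300 bp and from 2 to 5 kb, and about as frequent between. In the same 4 bands SMC1 had 4.53% against 7.05%, 14.6% against 14.1%, 42.3% against 39.6% and 64.8% against 75.3%. For TotalRNAPol2 they were 15.8% against 17.3%, 33.9% against 27.2%, 61.3% against 54.7% and 71.3% against 84.3%. The median M of RAD21 was 1.06 under 300 bp, 1.15 from 2 to 5 kb and 1.64 at 5 kb or more, while that of Pol2Ser5 was 2.46, 1.69 and 1.68.

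A CTCF region that was higher in DKO nearby went with larger polymerase differences but not with more cohesin. At the 847 higher regions with a CTCF region within 5 kb at an M of 1 or more, Pol2Ser5 overlapped 39.1% with a median M of 2.85, and RAD21 overlapped 17.0% with a median M of 1.02. At the 561 whose CTCF region within 5 kb had an M within 0.5 of 0, Pol2Ser5 overlapped 36.0% with a median M of 1.82, and RAD21 27.8% with 0.92. These 847 and 561 regions also differed in acetylation, with a median H3K27Ac M of 2.78 and 2.45. Their median distance to CTCF was 1.12 and 2.07 kb. Whether the polymerase difference goes with CTCF at equal acetylation was not tested. The 2631 higher regions with no CTCF region within 5 kb (58.8%) had Pol2Ser5 at 33.7% with a median M of 2.26 and RAD21 at 20.1% with 1.14. Cohesin and polymerase were therefore higher in DKO at higher regions with and without CTCF nearby.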

How the data were processed

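Chromatin immunoprecipitation with sequencing of 7 targets was compared between HCT116 and DKO, with 1 library per line and target. Per the submitters' processing notes, reads were aligned with BWA to hg19, and MACS2 is named for every target except TotalRNAPol2. Each deposited table lists the regions of both lines with, per the file headers, the normalized read density of each line (a signal scaled by the authors), M and A (the deposited log2 ratio and mean log2 density) and the authors' p-value for that pair of libraries.

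Read counts were recovered from M and A. All values came out whole within 0.05 in all 7 tables, with 1 added to each count, and the authors' scaling was a straight line in A. Regions were matched by an overlap of at least 1 bp; where several regions of a target overlapped, the one chosen was that with the largest overlap. Python 3.11.15, numpy 2.4.6, pandas 2.3.3 and scipy 1.17.1 were used. Recovery and matching were tested on simulated data. Library totals are not in these tables, so sequencing depth is unknown and the recovered counts (medians of 10 to 106 reads at the regions described) set the precision. No test was made between the lines, since each has 1 library.

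The members, the comparison sets and the thresholds were chosen with earlier results of these data known. Named regions follow a rule: the 8 highest M with at least 1 HCT116 read and the highest with 0, the 6 clusters with most regions, the 4 highest by the lower cohesin M, the 5 highest by the lowest of 3 polymerase M, the 3 nearest and 3 farthest from CTCF, the 3 on each side of the threshold and the 2 lowest cohesin or polymerase M. The widest region and the 1 called in HCT116 only were added after their values were seen. Gene lists and cell type markers were not used, because they need gene positions on hg19. Chromosome X and the inputs were left out of the comparisons. Alternatives changed the fold, the scaling, the distance from CTCF, the minimum density, the p-value, the overlap and the cluster distance.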

Additional observations from a re-analysis of the deposited data

How the results depend on the processing

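Every value rests on 1 library per line, 95.3% of the higher regions were called in DKO only, and wider regions with more reads overlap other targets more often. No paired analysis was possible because each line has 1 library per target and no result comes from a test. Over 15 results and their alternatives, 197 values were computed. No median changed sign. A value was counted as moved when it left the 95% interval of the value in the report (a number of regions when it differed by over 1.5 times), which 85 did and 112 did not. Removing chromosome medians moved none. The scalings shift the median of all regions too: a constant offset shifts Pol2Ser2 by -0.24 and TotalRNAPol2 by -0.29, and centring on all regions shifts CTCF by -0.27, RAD21 by -0.15, SMC1 by -0.16, Pol2Ser2 by -0.17 and TotalRNAPol2 by -0.27. The cause of the other moves was not tested, except that several settings keep other regions by construction.

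With a 3-fold threshold there were 7323 regions, of which 32.9% overlapped Pol2Ser5, 31.3% TotalRNAPol2 and 11.7% both cohesin subunits. The median M was 0.96 for RAD21, 0.84 for SMC1, 1.99 for Pol2Ser5, 1.07 for Pol2Ser2, 1.74 for TotalRNAPol2 and 0.39 for the nearest CTCF, at 6212 bp, and 52.0% lay in clusters. With an 8-fold threshold there were 1489 regions, of which 22.8% overlapped RAD21, 42.2% Pol2Ser5 and 39.2% TotalRNAPol2. There the median M was 1.36 for RAD21, 1.04 for SMC1, 2.92 for Pol2Ser5, 1.97 for Pol2Ser2, 2.65 for TotalRNAPol2 and 1.15 for the nearest CTCF, at 8396 bp, and 39.3% lay in clusters.

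With a constant offset, 37.3% overlapped Pol2Ser5 and the median M was 1.30 for RAD21, 1.04 for Pol2Ser2, 1.62 for TotalRNAPol2 and 0.77 for the nearest CTCF. Centred on all regions, the cohesin medians were 0.92 (RAD21) and 0.75 (SMC1), those of polymerase 1.13 (Pol2Ser2) and 1.72 (TotalRNAPol2), and the nearest CTCF had 0.26.

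At 1 kb or more from CTCF, 34.2% overlapped Pol2Ser5, the median M was 1.91 for TotalRNAPol2 and 0.41 for the nearest CTCF, and the median distance was 9235 bp. At 10 kb or more there were 1806 regions at a median of 21534 bp, and 44.6% lay in clusters. RAD21 overlapped 18.4%, SMC1 16.1%, both 11.0%, Pol2Ser5 33.6%, Pol2Ser2 12.9% and TotalRNAPol2 30.8%. Median M was 1.19 (RAD21), 1.01 (SMC1), 1.51 (Pol2Ser2), 2.14 (TotalRNAPol2) and 0.35 (nearest CTCF).

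At or above the table's median DKO density, RAD21 overlapped 26.9%, SMC1 23.3%, both 16.9%, Pol2Ser5 41.6%, Pol2Ser2 19.8% and TotalRNAPol2 39.1%, with a nearest CTCF at 5962 bp and a median M of 0.47. With the authors' p under 1e-05, RAD21 overlapped 22.9%, SMC1 19.7%, both 14.1% and TotalRNAPol2 34.7%, and the distance was 6690 bp. Asking for an overlap of 0.5 of the shorter region gave 33.6% for Pol2Ser5 and 31.9% for TotalRNAPol2. Regions called in DKO only overlapped RAD21 in 18.1%, SMC1 in 15.4%, both in 10.0%, Pol2Ser5 in 33.2%, Pol2Ser2 in 14.7% and TotalRNAPol2 in 30.9%. A cluster distance of 5 kb put 44.4% and one of 50 kb put 56.8% in clusters.

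Both following settings were chosen after seeing the data. With 1 region kept per shared counting window there were 2747 regions at a median of 6377 bp from CTCF, and 11.5% lay in clusters. RAD21 overlapped 28.2%, SMC1 24.7%, both 17.9%, Pol2Ser5 46.1%, Pol2Ser2 20.1% and TotalRNAPol2 42.3%. Without the regions within 2 Mb of each chromosome's longest stretch without a region, the median M of the nearest CTCF was 0.50.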

Other observations

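Windows of 1 Mb dense in higher regions differed in which targets moved. Over all regions of chromosomes 1 to 22, 20.3% of CTCF and 13.8% of RAD21 regions reached an M of 1. For Pol2Ser5, Pol2Ser2 and TotalRNAPol2 these shares were 14.9%, 18.4% and 20.5%, beside which the counts below should be read. In chromosome 1 from 4 to 5 Mb, where 34 of 45 H3K27Ac regions outside CTCF were 4-fold or more higher, CTCF reached an M of 1 at 52 of 65 regions and RAD21 at 54 of 81. In chromosome 16 from 34 to 35 Mb (31 of 44), CTCF did so at 44 of 52 regions, Pol2Ser5 at 29 of 31 and TotalRNAPol2 at 36 of 39. In chromosome 17 from 13 to 14 Mb (25 of 31), CTCF reached an M of 1 at 3 of 32 regions, Pol2Ser5 at 3 of 13, TotalRNAPol2 at 3 of 16, RAD21 at 12 of 46 and Pol2Ser2 at 13 of 30. In chromosome 8 from 13 to 14 Mb, RAD21 did so at 26 of 30 regions and CTCF at 7 of 17, while Pol2Ser5 did so at 8 of 17, Pol2Ser2 at 7 of 14 and TotalRNAPol2 at 10 of 11.

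On chromosome X, which the rule leaves out, 114 of 2214 H3K27Ac regions outside CTCF (5.15%, Wilson 4.30 to 6.15) were 4-fold or more higher in DKO and 171 (7.72%) were 4-fold or more lower.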
